A study of Homo sapiens with 4 samples.

Results

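The regions described here are new DNA methylation peaks that lie across the start of a protein-coding gene. They were taken from the list of new peaks of cells with the wild type editor by 1 rule. A peak was kept if its interval contained the canonical start site of exactly 1 protein-coding gene on chromosomes 1 to 22 and if no other coding start site lay within 1000 bp of that site. A start site without such a neighbour is called isolated below. Of the 12864 peaks in the list, 12667 lay on chromosomes 1 to 22 and 4649 met the rule. These 4649 spanning peaks were 36.1% of the whole list. The rule used positions only, so fold, summit, sequence and gene identity were not part of it, but it favours wide peaks, since a wide peak has more room to contain a given base.

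The study measured off-target methylation of an epigenome editor in HEK293, a human embryonic kidney cell line, by MBD-seq, in which the methyl-CpG binding protein MBD2 enriches methylated fragments of sheared genomic DNA for sequencing. There were 4 conditions with 1 library each. Untreated cells were the reference. The other 3 conditions, Ab-3A3L (WT), Ab-3A3L (K844E) and Ab-3A3L (R887E), were transfected with dCas9 carrying a SunTag peptide array, with an sgRNA against the ISG15 promoter and with a SunTag-binding antibody fused to the C-terminal domains of DNMT3A and DNMT3L, in which the DNMT3A part was wild type or carried the named mutation. Transfected cells were collected after 3 days by sorting for the reporters of all 3 plasmids, so the population was transient and selected for expression. The untreated, K844E and R887E libraries were not analysed here, and untreated cells enter only through the authors' own call of what is new.

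Start sites of coding genes often lie in CpG islands, stretches rich in CpG that are as a rule unmethylated in normal cells. DNMT3A sets new methylation on CpGs, and DNMT3L, which has no catalytic activity of its own, stimulates it. The full-length DNMT3A carries an ADD domain that binds histone H3 with an unmodified lysine 4, a mark state that active promoters lack. The fused C-terminal domains used in these cells do not include it. ISG15, the targeted gene, encodes a ubiquitin-like protein induced by interferon.

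The sequences around the start sites of the members with the highest fold show what such a region looks like. Each sequence is the GRCh37 (hg19) reference on the strand of the gene, with 150 bases before the start site and 30 bases from it, and every CpG is in capitals. TARS3 encodes a threonyl-tRNA synthetase, PAIP1 a partner of poly(A)-binding protein in translation, and FJX1 the human relative of the fly polarity gene four-jointed.
TARS3, chr15:102264647-102264826, minus strand: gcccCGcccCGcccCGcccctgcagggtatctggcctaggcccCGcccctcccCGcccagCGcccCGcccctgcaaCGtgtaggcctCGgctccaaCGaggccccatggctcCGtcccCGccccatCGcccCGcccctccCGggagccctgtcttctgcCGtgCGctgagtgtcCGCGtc
PAIP1, chr5:43557150-43557329, minus strand: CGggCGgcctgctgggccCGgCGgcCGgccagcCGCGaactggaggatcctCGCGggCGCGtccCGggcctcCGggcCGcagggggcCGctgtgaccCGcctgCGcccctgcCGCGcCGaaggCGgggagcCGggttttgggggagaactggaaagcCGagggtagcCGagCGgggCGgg
FJX1, chr11:35639858-35640037, plus strand: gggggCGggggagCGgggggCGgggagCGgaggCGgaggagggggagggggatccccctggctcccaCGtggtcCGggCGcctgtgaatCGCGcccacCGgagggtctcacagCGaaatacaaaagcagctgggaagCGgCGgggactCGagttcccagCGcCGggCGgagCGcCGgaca
These 180-base windows held 19 CpGs at TARS3, 26 at PAIP1 and 20 at FJX1.

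The fold of a peak, the authors' value, compares the fragments piled up at the summit, the highest point of the peak, with a background. For the spanning peaks the median fold was 9.05, with a 95% order-statistic interval of 8.84 to 9.31 and quartiles of 6.74 and 11.8. Such intervals and the binomial ones below cover counting error only, since the peaks of 1 library are not replicates and PCR copies are not independent molecules. TARS3 stood first with a fold of 37.2, from 62 fragments at the summit over a background of 0.694 fragments. PAIP1 followed with a fold of 28.2 from 47 fragments, and FJX1 with 26.7 from 42 fragments. MAP6, which encodes a microtubule-stabilising protein, had a fold of 25.5 from 40 fragments. ROPN1L, a gene of sperm and ciliary proteins, had a fold of 25.2 from 48 fragments. All 5 peaks were over 700 bp wide, from 792 bp at TARS3 to 2003 bp at FJX1, and held between 92 and 230 CpGs.

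At the other end, the 3 lowest folds went with high backgrounds and not with few fragments. MAN1B1, a mannosidase gene of the endoplasmic reticulum, had the lowest fold, 1.79, with 63 fragments at the summit over a background of 34.7. WNT1, the gene of a secreted signalling ligand, had a fold of 1.86 with 50 fragments over 26.4. PDZD2 had a fold of 1.95 with 43 fragments over 21.5. These 3 summits held at least as many fragments as those of MAP6 and FJX1, and differed from them in the denominator of the fold. DPH7, needed for the diphthamide modification of an elongation factor, is named for its high background, with 58 fragments over 25.7 and a fold of 2.21. Other low folds came from few fragments over a low background. ZNF543 had a fold of 3.99 from 6 fragments over 0.755.

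The fragments and backgrounds were recovered from the fold and p-value of each peak. The lowest recovered background, 0.611, is read here as the rate over the whole genome. That reading is an inference, since the settings of the peak caller are not given. Backgrounds within 0.005 of this rate were counted as equal to it. Of the spanning peaks, 1694 (36.4%, 95% exact binomial interval 35.1% to 37.8%) stood over this rate, and 833 (17.9%) over a background of at least 2 fragments. Members with a background under 1 had a median of 16 fragments and a fold of 10.6. Those with a background of at least 5, which numbered 277, had a median of 28 fragments and a fold of 3.17. Across all members the background and the fold had a Spearman's rho of -0.50 (Pearson's r -0.50, n = 4649), 2 quantities that share a term, since the background is the divisor of the fold. The depth behind one member was a median of 18 fragments, with a range of 6 to 71, so folds of single genes are coarse.

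**Figure D1:**
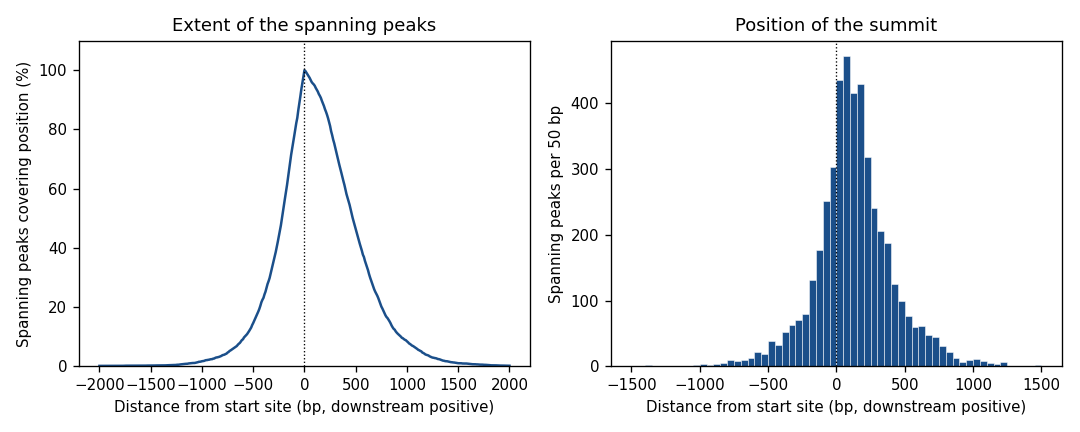
Left, the percent of the 4649 spanning peaks that cover each distance from the start site in bp, with downstream positive. Right, the number of summits per 50 bp of distance. Cover falls to 54.6% at 200 bp upstream but to 86.8% at 200 bp downstream, and the summits centre 115 bp downstream of the start site.

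The spanning peaks were not centred on the start site but leaned into the gene. The summit lay at a median of 115 bp downstream of it (95% order-statistic interval 104 to 123 bp, quartiles -24 and 272 bp). It was downstream in 3337 peaks (71.8%, 95% exact binomial interval 70.5% to 73.1%), upstream in 1304 (28.0%) and on the start base itself in 8. Genes on the plus strand (70.1% downstream) and on the minus strand (73.6%) leaned the same way. Peaks reached a median of 219 bp upstream and 470 bp downstream, and the downstream reach was the longer in 3573 peaks (76.9%). At 500 bp upstream 14.6% of the members still covered the position, against 46.3% at 500 bp downstream. In every class of width the larger share of summits was downstream, from 64.9% of peaks narrower than 400 bp to 74.98% of those of 600 to 899 bp. All distances are from the canonical start site, which was often not the only start in the peak. Of the peaks, 3097 (66.6%) held 2 or more coding transcript starts of their gene, and 727 (15.6%) held the start of a long non-coding RNA.

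Summits fell in different parts of the gene. The 5′ untranslated part of the first exon held 1323 summits (28.5%), the first intron 1255 (27.0%) and the coding part of the first exon 703 (15.1%), while 64 lay in later parts. The start codon was inside the peak in 2736 members (58.9%), and 3688 peaks (79.3%) ran on past the end of the first exon, whose median length was 221 bp. The peaks of MAP3K8, UCP2 and RAPGEFL1 are examples of summits at the start site itself. MAP3K8, a kinase gene, had its summit at 23 bp with 49 fragments, UCP2, an uncoupling protein gene of mitochondria, at 8 bp with 38 fragments, and RAPGEFL1, of the RAP exchange factor family, at 2 bp with 37 fragments. PDE4DIP, which encodes myomegalin and has partial copies on its own chromosome that reads may also fit, had the most fragments among members with the summit within 25 bp, 52, at 17 bp. NNT, the mitochondrial transhydrogenase gene, had 39 fragments and a summit 16 bp upstream.

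The farthest summits belonged to wide peaks. ANP32A, which encodes an acidic nuclear phosphoprotein, had the widest peak, 4327 bp, with its summit 3098 bp downstream in the first intron. HES4, the gene of a repressor of the HES family, had a peak of 3282 bp with the summit 1928 bp downstream. HMGA2, a gene of an architectural chromatin protein, had its summit 1755 bp downstream. In the opposite direction, the summit of NPTX1, a neuronal pentraxin gene, lay 1629 bp upstream, that of UBTF, a factor of RNA polymerase I, 1615 bp upstream and that of SPHK1, a sphingosine kinase gene, 1396 bp upstream. ACTG1, the gene of cytoplasmic gamma-actin, and NRP1, a co-receptor of semaphorins and VEGF, also had wide peaks, of 3413 and 3142 bp, with summits 1208 and 690 bp upstream. The summit values of such peaks are not measured at the start base.

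The lean of the peaks ran with the placement of the CpGs. Of the members, 4548 (97.8%) had the start site inside a CpG island rebuilt from the sequence, and in 76.0% of these the island reached farther downstream than upstream. Where the island was longer downstream, the summit was downstream in 77.2% of 3456 peaks. Where it was longer upstream, that share was 54.995% of 1091 peaks (95% exact binomial interval 52.0% to 58.0%). CpGs within 500 bp numbered a median of 39 upstream and 52 downstream. The summit was downstream in 79.4% of the 3546 members with more CpGs downstream and in 45.9% of the 1037 with more CpGs upstream. The peaks covered a median of 83.6% of the island part upstream of the start site (quartiles 37.1% and 100%, n = 4269). Downstream the median was 94.0% (quartiles 60.4% and 100%, n = 4480). Island parts under 100 bp were left out. The whole upstream part was covered in 35.2% of these peaks and the whole downstream part in 41.3%.

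Whether an isolated start site was spanned varied with the CpGs around it. Of 16240 isolated start sites, 4649 were spanned, which is 28.6% (95% exact binomial interval 27.9% to 29.3%) and the background for all shares of genes below. A start site not spanned may have gained no methylation, may have been methylated before, or may have gained methylation that was not captured or called. The list does not tell these apart. The assay captures fragments through their methylated CpGs, so few CpGs may also limit what it detects, which was not tested. With fewer than 10 CpGs within 500 bp on either side, none of 1649 start sites was spanned, which allows a share of up to 0.182%. The share was 1.92% with 20 to 39 CpGs, 15.04% with 40 to 59, 35.1% with 60 to 79, 55.2% with 80 to 99 and 59.8% with 100 to 119. Above that it turned down, to 43.9% (41.1% to 46.7%) of the 1232 start sites with at least 120 CpGs. At those densest start sites a further 35.1% had a new peak within 1000 bp that left the start site out, against 22.2% with 100 to 119 CpGs.

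**Figure D2:**
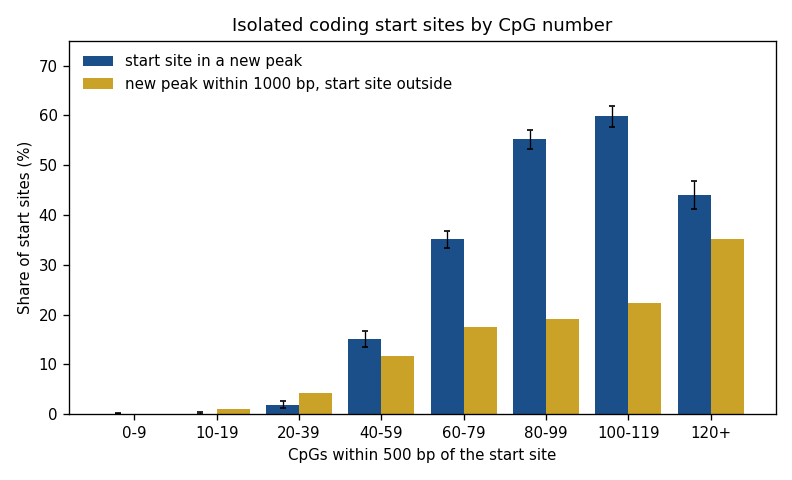
Share of the 16240 isolated coding start sites, in percent, by the number of CpGs within 500 bp on either side. Blue bars are start sites inside a new peak with 95% exact binomial intervals and yellow bars are those with a new peak within 1000 bp only. The blue share rises to 59.8% at 100 to 119 CpGs and is 43.9% from 120, where the yellow share is 35.1%.

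Promoters were also placed in 3 classes by the CpG content of 500 bp windows from 1300 bp before to 200 bp after the start site. A window with GC over 55% and an observed to expected CpG ratio over 0.75 makes a promoter high in CpG, and a promoter is low where no window reaches 0.48. Of the 9083 high-CpG start sites, 4182 were spanned (46.0%), and these made up 90.0% of all members. Of 3271 intermediate start sites 455 were spanned (13.9%), and of 3886 low-CpG start sites 12 were (0.309%). Among the high-CpG start sites that were not spanned, 1158 had a new peak only downstream, 374 only upstream and 307 on both sides. At start sites with peaks on both sides the gap between them had a median of 447 bp over all classes (quartiles 285 and 678 bp, n = 317). The remaining 3062 had none within 1000 bp. The high-CpG start sites with the most CpGs and no peak near them were those of CTBP1, a corepressor gene, with 181 CpGs, TRAF3, a signalling adaptor gene, with 180, TAF4, a TFIID subunit gene, with 178, and PACS2 and the adrenergic receptor gene ADRA2C with 171 each.

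**Figure D3:**
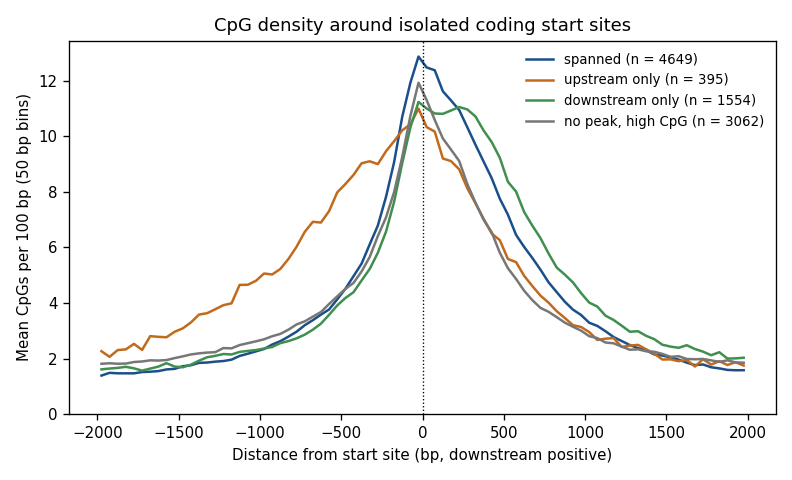
Mean CpGs per 100 bp in 50 bp bins around isolated coding start sites, by distance in bp with downstream positive, for spanned start sites, those with a new peak only upstream or only downstream, and high-CpG start sites without a peak within 1000 bp. In the bin from 50 bp upstream the spanned sites reach 12.9 and those without a peak 11.9. At 500 bp upstream the sites with a peak only upstream stand at 8.28, against 4.51 for the spanned sites.

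The 12 members of the low class were few enough to name in full. They were the start sites of KRT80 and KRT8, keratin genes of epithelia, ADCY7, an adenylyl cyclase gene, TNS2, a tensin gene, ALDH3B2, an aldehyde dehydrogenase gene, UGT3A2, a glycosyltransferase gene, OTOG, which encodes otogelin of the inner ear, SGCA, which encodes the muscle protein alpha-sarcoglycan, GRIN2D, a glutamate receptor subunit gene, COL1A1, the gene of a type I collagen chain, CDH5, the endothelial cadherin gene, and STAB1, a scavenger receptor gene. Their folds ran from 3.19 at STAB1 to 10.4 at KRT80, with 11 to 31 fragments, and their widths from 253 to 499 bp, with a median of 323 bp. The peaks of ALDH3B2, SGCA and TNS2 had the lowest CpG densities of all members, 2.89, 3.56 and 3.59 CpGs per 100 bp. The highest were those of FOXK1, a forkhead gene, with 17.7, GNAQ, a G protein subunit gene, with 17.6, and UBE2V2, a ubiquitin-conjugating enzyme variant, with 17.3. These CpG-dense peaks were weak, with 8, 9 and 12 fragments at the summit.

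Density and number of CpGs ran differently with the fold. Over the 4649 members, which all come from 1 library, CpG number and fold had a Spearman's rho of 0.43 (Pearson's r 0.39), while CpGs per 100 bp and the fold had a rho of -0.11 (r -0.11). The number of CpGs and the width are close to the same quantity here, with a rho of 0.95, and a peak that stands higher above the threshold also extends farther, so width and fold, with a rho of 0.49, are not independent measures.

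Spanning peaks had higher folds and were wider than the peaks beside start sites. Peaks within 1000 bp of isolated start sites lying only downstream (n = 1579) had a median fold of 6.95 (95% order-statistic interval 6.83 to 7.12), those only upstream (n = 375) one of 6.405 (6.19 to 6.83), and those over 1000 bp from any coding start site (n = 4133) one of 6.24 (6.20 to 6.33). A fold of at least 10 was reached by 39.5% of the spanning peaks and by 16.3%, 10.4% and 16.3% of these groups. The median width was 718 bp for spanning peaks and 426, 397 and 374 bp for the others, a difference that the rule itself helps to make. Fragments at the summit did not follow the same order, with medians of 18 for spanning peaks, 15 for downstream, 17 for upstream and 19 for far peaks. The genome-wide background applied to 36.4% of spanning peaks, 32.6% of downstream, 21.3% of upstream and 18.8% of far peaks, and the median background was 0.702, 0.878, 1.47 and 1.62 fragments in these groups. The 450 peaks that contain a coding start site but fail the rule, through a near or second start site, came closest to the members, with a median fold of 8.27, 29.3% at a fold of at least 10, a width of 607.5 bp and 39.3% at the genome-wide background. Peaks beside a spanning peak (n = 508) had a median fold of 7.57.

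**Figure D4:**
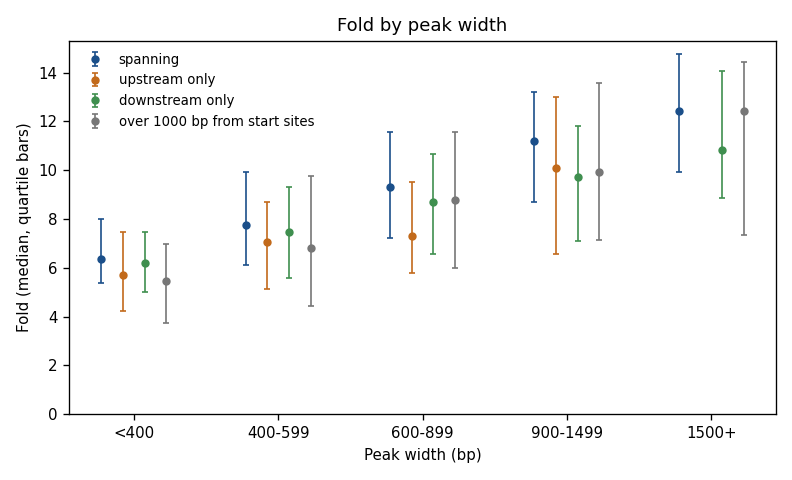
Median fold, with bars from the first to the third quartile, of spanning peaks, peaks only upstream or only downstream of an isolated start site and peaks over 1000 bp from coding start sites, by peak width in bp. Groups under 16 peaks are left out. Within widths of 600 to 899 bp the medians are 9.31, 7.32, 8.69 and 8.77.

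Much of the difference in fold narrowed when peaks of like width were compared. Among peaks of 600 to 899 bp the median fold was 9.31 for spanning peaks, 8.69 for downstream, 7.32 for upstream and 8.77 for far peaks, with quartiles of 7.22 and 11.5 for the spanning ones. Among peaks under 400 bp the medians were 6.37, 6.21, 5.72 and 5.44. In the 4 width classes under 1500 bp the spanning peaks had the highest median, by less than the distance between their own quartiles. CpG density was 10.8 per 100 bp in spanning peaks, 10.3 in downstream, 10.02 in upstream and 8.35 in far peaks, and 98.9% of the spanning peaks overlapped a CpG island, against 97.9%, 97.6% and 70.2%. These shares rest on a permissive set of islands. With stricter islands the share of spanning peaks was 90.0%, and no such share is given for the other groups.

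Near the edge of the rule the 2 sides looked alike in fold. In 310 members the start site lay within 25 bp of an end of the peak, and their median fold was 8.05, with quartiles of 5.90 and 9.93. In 254 of these it was the upstream end. Another 264 isolated start sites lay outside a peak by up to 25 bp, and that peak had a median fold of 7.66, with quartiles of 6.20 and 9.93. For 230 of them the peak began downstream. Per the labels the DNA was sheared to fragments of 200 to 1000 bp, which is coarser than this distance.

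The weakest members by significance were LPAR2, a lysophosphatidic acid receptor gene, and MLNR, the motilin receptor gene, each listed at 2.002 as −log10 q, and each with 22 fragments at the summit against 8.60 in the background. GAS7 followed with a −log10 q of 2.01, and NPR1, a natriuretic peptide receptor gene, with 2.05. EGR4 and EVA1C both stood at 2.06. The smallest value among all peaks of the list rounded to the same 2.002.

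Sequence motifs of promoter factors were searched for in the 300 bp from 250 bp before to 50 bp after each start site, on both strands, each motif on its own, so that a base may count for more than 1 of them. A match is a string of letters and not evidence of a bound factor. The TATA box was TATAAA on the gene strand only, lying wholly within 40 to 21 bp before the start site. It stood at 101 members (2.17%), against 4.25% of all isolated start sites. Within the high-CpG class the shares were 2.10% of spanned start sites and 1.99% of those without a peak within 1000 bp. The 3 TATA members with the highest fold were FAM83D, a gene of the mitotic spindle, with 17.1, TFRC, the transferrin receptor gene, with 16.97, and H1-4, a linker histone gene, with 15.5, a fold it shared with H2AC19. TFRC and H1-4 are shown on the gene strand with the TATA box in capitals, which begins 33 and 29 bp before the start site.
TFRC, chr3:195808932-195809111, minus strand: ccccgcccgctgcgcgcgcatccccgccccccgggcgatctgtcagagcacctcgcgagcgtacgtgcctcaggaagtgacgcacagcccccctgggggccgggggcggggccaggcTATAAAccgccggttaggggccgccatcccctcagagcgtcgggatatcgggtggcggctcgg
H1-4, chr6:26156407-26156586, plus strand: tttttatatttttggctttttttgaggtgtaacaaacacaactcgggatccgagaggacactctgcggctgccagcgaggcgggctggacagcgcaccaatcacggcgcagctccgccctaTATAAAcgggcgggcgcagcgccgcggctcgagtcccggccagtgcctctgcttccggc

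The letters CCGGAAG, the core bound by factors of the ETS family, were less frequent at spanned start sites within the high-CpG class, but not over all classes together. Within the high-CpG class they stood at 551 of 4182 spanned start sites (13.2%, 95% exact binomial interval 12.2% to 14.2%), at 14.9% of those with a peak beside only and at 676 of 3062 without a peak within 1000 bp (22.1%, 20.6% to 23.6%). Counted the other way, 36.7% of the 1501 high-CpG start sites with these letters were spanned and 47.9% of the 7582 without them. Within like numbers of CpGs the shares were 14.5% of spanned against 30.7% of no-peak start sites with 40 to 59 CpGs, 19.3% against 25.8% with 60 to 79, 13.5% against 16.9% with 80 to 99, 10.9% against 14.2% with 100 to 119 and 7.39% against 11.6% from 120. The spanned share was the lower one in all 5 classes, and the intervals were apart in the 40 to 59 and 60 to 79 classes only. The gap was widest in the 40 to 59 class. Over all classes the letters stood at 12.01% of isolated start sites, at 12.9% of the spanned ones and at 11.02% of those without a peak, the reverse order.

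CCAAT, the box bound by NF-Y, showed a like order in the high-CpG class, 28.9% of spanned start sites, 35.6% of those with a peak beside only and 36.8% of those without a peak. Over all isolated start sites CCAAT stood at 35.2%. By CpG number its shares were 31.5% against 42.6% with 40 to 59 CpGs, 26.6% against 26.9% with 100 to 119 and 26.4% against 31.4% from 120. The GC box GGGCGG, bound by SP factors, stood at 87.0% of spanned and 78.6% of no-peak start sites of the high-CpG class and at 60.4% of all isolated start sites. With 60 to 79 CpGs the spanned and no-peak shares were 79.2% and 73.8%, and with 80 to 99 CpGs they were 86.1% and 85.9%. The order was the reverse with 100 to 119 CpGs, 92.3% and 92.8%, and from 120, 95.4% and 96.1%. The letters GATGGCGG, in the core bound by YY1, stood at 3.44% and 5.16%, and at 3.01% of all isolated start sites. For the NRF1 core GCATGCGC the shares were 5.14% and 5.39%, with 3.69% over all isolated start sites. What moves a start site between these groups was not tested.

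Gene lists differed in how many of their isolated start sites were spanned, and the share is read here against all isolated start sites and, within the high-CpG class, against the 46.0% of that class. Against the 28.6% of all isolated start sites, 23 of 51 RAB GTPase genes, which direct vesicle traffic, were spanned (45.1%, 95% exact binomial interval 31.1% to 59.7%). Within the high-CpG class it was 18 of 35 (51.4%), nearer to the share of that class. Their members included RAB6A with a fold of 16.9, RAB18 with 16.1, RAB10 with 13.5, RAB5A with 8.07 and RAB7A with 6.21. RAB6C, with the highest fold of 18.0, and RAB6D are close copies of RAB6A, so reads at these genes may have been placed on the wrong copy. Of 40 cyclin and cyclin-dependent kinase genes 17 were spanned (42.5%), with an interval of 27.0% to 59.1% that holds the background. All 17 were in the high-CpG class, where they made up 47.2% of 36 start sites, close to the 46.0% of the class. They included CCNE1 with a fold of 14.9 and CCNE2 with 13.04, the G1/S cyclins, CCNA2 with 8.07, CCNB2 with 7.45 and CCND1 with 3.99. CDK19, a kinase of the mediator module, had the highest fold of the list, 17.4, with the start site on the outermost base of its peak.

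Solute carriers, the transporters of the plasma membrane and organelles, were spanned at 105 of 311 (33.8%, 28.52% to 39.3%), led by SLC1A2, a glutamate transporter gene, with a fold of 18.6. Potassium channels stood at 27 of 90 (30%) and collagens at 12 of 38 (31.6%). The intervals of all 3 lists hold the background. Within the high-CpG class solute carriers stood at 92 of 166 (55.4%). The list of translation initiation and elongation factors had 14 of 51 spanned (27.5%), led by EIF4G2 with a fold of 12.4. Within the high-CpG class it was 14 of 45 (31.1%), under the share of that class. Drawn by gene symbol, this list also holds regulators of the factors. Among its spanned members these were EIF2AK1, EIF2AK2, EIF2AK4, EEF2K, EIF4EBP1, EIF4EBP2 and EIF4ENIF1. Near the 28.6% of all isolated start sites lay the replication licensing factors with 4 of 14 (8.39% to 58.1%), among them MCM2 with 10.3. Within the high-CpG class they stood at 4 of 13 (30.8%), under the share of that class. Of the genes of DNA methylation itself 4 of 15 were spanned, DNMT3B with a fold of 9.95, ZBTB4 with 5.04, UHRF1 with 4.10 and TET2 with 3.77. All 4 were among the 12 start sites of this list in the high-CpG class (33.3%).

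**Figure D5:**
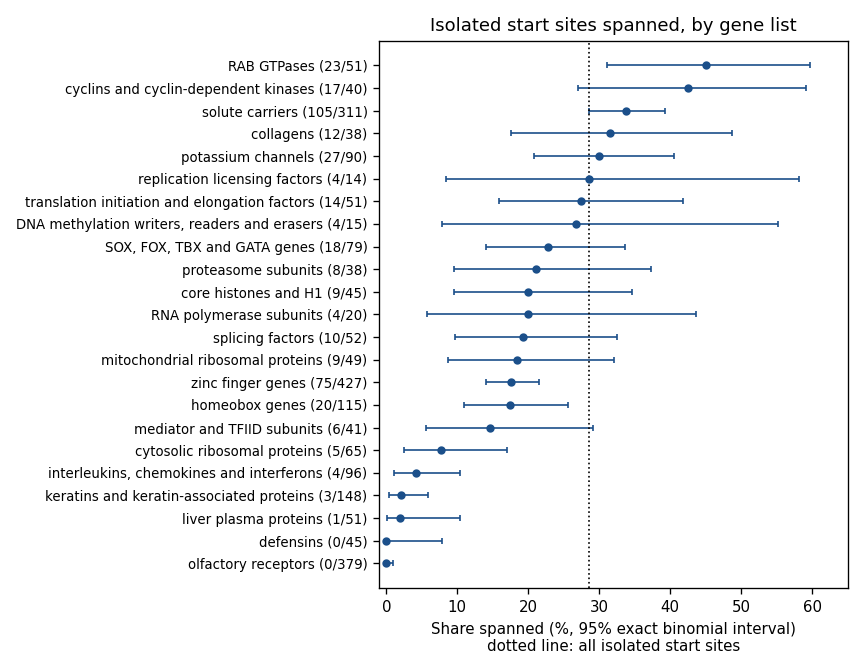
Share of the isolated start sites of each of 23 gene lists that lie in a new peak, in percent, with 95% exact binomial intervals and the counts beside each name. The dotted line marks the 28.6% of all isolated start sites. RAB GTPases stand highest at 45.1% and cytosolic ribosomal proteins, at 7.69%, lowest among the lists of housekeeping genes.

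Of the lists of core cellular machines, the cytosolic ribosomal proteins alone had an interval below the 28.6% of all isolated start sites. Of the cytosolic ribosomal protein genes 5 of 65 were spanned (7.69%, 2.54% to 17.05%), and 56 had no new peak within 1000 bp. In the high-CpG class this was 5 of 50, 10% against the 46.0% of all high-CpG start sites. They included RPLP1 with a fold of 12.3, RPLP2 with 6.77, RPL10A with 6.21 and RPS2 with 5.65. Mitochondrial ribosomal proteins stood at 9 of 49 (18.4%, 8.76% to 32.0%) and splicing factors at 10 of 52 (19.2%, 9.63% to 32.5%). The proteasome list stood at 8 of 38 (21.1%, 9.55% to 37.3%). It was drawn by gene symbol, and its spanned members PSMG1, PSMG3, PSMG4 and PSMC3IP are not genes of subunits. RNA polymerase subunits stood at 4 of 20 (5.73% to 43.7%) and mediator and TFIID subunits at 6 of 41 (14.6%, 5.57% to 29.2%). The latter list also holds TAF1B, which encodes a factor of RNA polymerase I. The intervals of these 5 lists hold the background. Among their members were MED12L with a fold of 16.8 and HNRNPU, of the splicing list, with 12.99. Within the high-CpG class mediator and TFIID subunits stood at 18.2% of 33, splicing factors at 22.2% of 45 and mitochondrial ribosomal proteins at 24.3% of 37. The proteasome list stood at 25% of 24 and RNA polymerase subunits at 25% of 16. All these shares were under the 46.0% of that class, and no intervals were computed for them.

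Zinc finger genes, many of which encode KRAB repressors, had 75 of 427 spanned (17.6%, 14.1% to 21.5%), and homeobox genes, regulators of development, 20 of 115 (17.4%, 11.0% to 25.6%). In the high-CpG class the shares were 25.5% and 21.8%. The homeobox members stood over a median background of 2.42 fragments, the zinc finger members over 0.720, and their median folds were 6.65 and 8.07. POU6F1 led the homeobox genes with a fold of 15.5 and LHX3 stood last with 2.66, from 68 fragments over a background of 24.98. SOX, FOX, TBX and GATA genes stood at 18 of 79 (22.8%), and within the high-CpG class at 16 of 58 (27.6%). Core and linker histones stood at 9 of 45, and within the high-CpG class at 7 of 15. Of them H3C14 and H3C15, as well as H2AC19, have near-identical copies, and their peaks are uncertain for that reason.

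The lists with shares near 0 were those of interleukins, chemokines and interferons, keratins, liver plasma proteins, olfactory receptors and defensins. Interleukins, chemokines and interferons had 4 of 96 spanned (4.17%), IL12A, CXCL2, IL15 and CXCL6, with folds of 7.05 to 9.45. Keratins and keratin-associated proteins had 3 of 148, KRT18 with a fold of 11.7, KRT80 and KRT8. Of 51 liver plasma protein genes 1 was spanned, ITIH5 with a fold of 9.93. None of 379 olfactory receptor genes was, which allows a share of up to 0.792%, and none of 45 defensin genes, which allows up to 6.67%. Only 1 of these olfactory receptor start sites and none of the defensin start sites was in the high-CpG class. Of the interleukin, chemokine and interferon start sites 7 were in that class, and 2 of the 7 were spanned. For keratins these counts were 3 and 1, and for liver plasma proteins 2 and 1.

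By chromosome, chromosome 10 had the highest share, 255 of 627 isolated start sites (40.7%, 36.8% to 44.6%), and chromosome 19 the lowest, 158 of 1227 (12.9%, 11.1% to 14.9%), against 29.9% over the other autosomes. Within the high-CpG class chromosome 19 stood at 20.9%. Without its ZNF genes the chromosome stood at 139 of 1017 (13.7%).

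Among the loci the study displays, the start sites of ACTB and GAPDH were spanned. ACTB, the beta-actin gene, had a peak at chr7:5570029-5570297 with a fold of 4.80, 21 fragments over a background of 3.58 and the summit 84 bp downstream in the first intron. GAPDH, a glycolytic enzyme gene, had one at chr12:6643659-6644485 with a fold of 9.06, 23 fragments over 1.65 and the summit 158 bp downstream. The start site of VEGFA, an angiogenic growth factor gene, was not a member, since its peak began 317 bp downstream. ISG15, the target of the sgRNA, had no new peak in the list within 1000 bp of its start site. By targeted bisulfite sequencing, a separate assay, the paper reports strong methylation of the ISG15 promoter region with the wild type editor. The paper also displays its MBD-seq data at ISG15 and describes a methylation signal there with both mutants. A missing entry in the list therefore does not mean that the target gained no methylation.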

How the data were processed

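MBD-seq libraries of HEK293 cells were sequenced for 4 conditions with 1 library each. The authors used Bowtie2 at its defaults to map reads to hg19, and their processing notes also name FastQC, deepTools, used for coverage tracks that were not used here, and MACS2, whose settings are not given in the sources used here. How reads that fit several places were treated is likewise not given. The deposited list of new peaks holds a fold, which is a ratio of fragments at the summit to a background, and a p-value and a q-value, each as −log10. The authors' score was not used. The deposited summit position was counted from the start of the peak. The list holds no expression, so markers of HEK293 cells could not be checked.

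Start sites were those of the canonical transcript of each coding gene in GENCODE release 44 lifted to GRCh37. Of 20163 coding genes, 282 without such a transcript were not used, and 1 member has the start of one of these within 1000 bp. Fragments and backgrounds were recovered by taking the fold as (fragments + 1)/(background + 1) and the p-value as a Poisson probability, which matched the listed −log10 p to within 0.000403. That the background stems from untreated cells is an inference. CpG islands were rebuilt by scoring CpGs 17 and other bases -1. They had over 200 bp, at least 50% GC and an observed to expected ratio over 0.6. Chromosomes 1 to 22 and X held 50607 of them, more islands than the paper counted. The stricter limits, at least 500 bp, 55% GC and a ratio of 0.65, left 16958. Downstream and upstream follow the strand of the gene. With 1 library there is no test between conditions and no p-value was computed. Shares have exact binomial intervals and a count of 0 was read as up to 3 counts.

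The genes named are those at the extremes of fold, width, summit position, fragments near the start site, CpG density, background and −log10 q, the TATA members with the highest fold, the up to 2 members of highest fold in each of 23 lists, the loci the study displays and the high-CpG start sites without a peak. Further list members and the low-CpG members were named after their values had been seen. The members and the lists were chosen with earlier results of these data known. Functions were tested on simulated data. Scripts ran under Python 3.11.15 and used scipy 1.17.1, numba 0.67.0, numpy 2.4.6, matplotlib 3.10.9 and pandas 2.3.3. Some items are not reported here.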

Additional observations from a re-analysis of the deposited data

How the results depend on the processing

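No paired analysis was possible because each condition has 1 library, and leaving out a replicate is likewise not possible. Over 67 recomputed values, 38 stayed within the limits, 29 moved and 0 changed direction. Counts, folds and densities among them have no direction to change. Isolation distances of 500 and 2000 bp moved none of the values beyond the limits. When peaks below the median fold were dropped, by construction fewer peaks, the share of isolated start sites spanned was 19.5%, the summit 136 bp downstream, downstream summits 74.0%, the fold 10.6, CpGs per 100 bp 10.7, the high-CpG share 31.7% and the genome-wide background 47.1%. With a −log10 q of at least 10 there were 3070 spanning peaks, 18.9% of start sites, with the summit at 140.5 bp, 73.9% downstream, a fold of 10.6, 99.2% in islands, a high-CpG share of 30.7% and 41.2% at the genome-wide background. With the start of the 5′-most coding transcript the values were 23.4% of start sites, 125 bp, 73.2% downstream and a high-CpG share of 44.3%. With the start site at least 100 bp inside both ends they were 20.8%, 87 bp, 68.5% downstream, a fold of 9.76 and a high-CpG share of 34.1%. Adding chromosome X gave 27.5% and 44.8% of high-CpG start sites. The midpoint of the peak lay downstream in 76.9%. Stricter islands were overlapped by 90.0% of spanning peaks, and class windows within 500 bp of the start site gave a high-CpG share of 44.4%. Beyond the construction of each setting, the cause was not tested. Of the 23 gene lists, 13 stayed within their intervals among peaks of at least the median fold, where cytosolic ribosomal proteins fell to 1.54%, mitochondrial ones to 8.16%, mediator and TFIID subunits to 4.88%, homeobox genes to 5.22%, DNA methylation genes to 6.67%, collagens to 15.8%, solute carriers to 21.9%, potassium channels to 16.7%, zinc finger genes to 9.60% and SOX, FOX, TBX and GATA genes to 12.7%. The limits are 18 fragments at the median summit and 1 library per condition.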
